A study of Mus musculus with 4 samples.

Results

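The Notch ligands, receptors and modulators described here are 10 genes chosen by symbol: the ligand genes Dll1, Dll3, Jag1 and Jag2, the receptor genes Notch1, Notch2 and Notch3, the fringe genes Lfng and Mfng, and Nrarp. All 10 were found among the 54532 gene IDs of the count table, and all 10 passed the filter on low counts. RNA was taken from mouse cranial neural tubes microdissected at embryonic day 10.5 and sequenced in 4 libraries, 1 per embryo. The 2 Control embryos had no E2f1 Tg(Wnt1-cre)2Sor transgene. The 2 DCKO embryos were Lats1 flox/flox and Lats2 flox/flox and carried that transgene. The labels do not say whether the Control embryos carried floxed alleles. The transgene drives Cre from Wnt1 regulatory sequences, which work in part of the neural tube, its dorsal side included, and in neural crest. What part of the sampled cells recombined was not measured. Loss of the Lats genes cannot be told apart from the presence of Cre.

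Notch is a transmembrane receptor that is cut when a ligand on a neighbouring cell pulls on it. The freed intracellular part enters the nucleus, joins the DNA-binding protein RBPJ and switches on genes such as Hes1, Hes5 and Nrarp. In the embryonic neural tube, newborn neurons that carry Delta-type ligands keep their neighbours as progenitors by this signal, while proneural factors such as the neurogenins switch on Delta-type ligands in the cells that leave the cycle. Fringe enzymes add a sugar to Notch and so change which ligands it responds to. The same genes also serve blood vessels, where Dll4, Jag1, Notch1, Notch3 and Notch4 act between endothelial and mural cells.

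Library totals lay between 41798361 and 55137810 counts. Models of the ribosomal RNA cluster took 12.11% to 13.05% of counts in Control and 24.5% to 30.0% in DCKO, and levels that are shares of a total, such as TPM, are lowered by it in DCKO. In CPM, which are counts scaled to library size by the trimmed mean of M values (TMM), Lats1 stood at 44.2 and 65.6 in Control against 30.0 and 29.7 in DCKO (log2 fold change -0.88, SE 0.23, adjusted p 0.0538), just over the threshold of 0.05. Lats2 stood at 26.7 and 13.3 CPM against 21.2 and 35.3 CPM (log2 fold change 0.50, SE 0.41, adjusted p 0.426), so the 2 groups overlapped. The floxed exons are not given in the sources used here, and the counts of these genes therefore do not check the genotype. Xist, transcribed from the inactive X chromosome, was counted 10837 and 7786 times in Control against 8 and 22 times in DCKO, so embryo sex cannot be told apart from group, and 0 of the 10 members lie on a sex chromosome. Neural progenitor markers were present in DCKO but lower. Sox2 stood at 129 and 107 TPM in Control and 47.9 and 59.7 in DCKO. Sox3 fell further, from 131 and 104 TPM in Control to 13.6 and 12.4 in DCKO.

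Dll1, a Delta-type ligand, the fringe genes Lfng and Mfng, the feedback gene Nrarp and the receptor Notch1 fell in DCKO neural tubes, while the ligand Jag2 rose. Of the 10 members, 6 were lower in DCKO at an adjusted p under 0.05 (Dll1, Notch1, Notch3, Lfng, Mfng and Nrarp), 1 was higher (Jag2) and 3 did not pass (Dll3, Jag1 and Notch2). Over all 19207 tested genes, 8.11% were called lower, 8.93% higher and 17.0% in either direction. The median log2 fold change was -1.24 over the 10 members and 0.03 over all tested genes. In CPM, both DCKO libraries lay below both Control libraries for 7 members, as they did for 32.9% of tested genes, and above them for the other 3, as they did for 33.6%. In limma on unfiltered log2(TPM + 1), a fit in which no gene of the table was called, 8 of the 10 members had an unadjusted p under 0.05, as did 21.01% of its 30682 genes. These samples are bulk tissue, in which fewer cells of a type and less RNA per cell cannot be told apart.

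**Figure D1:**
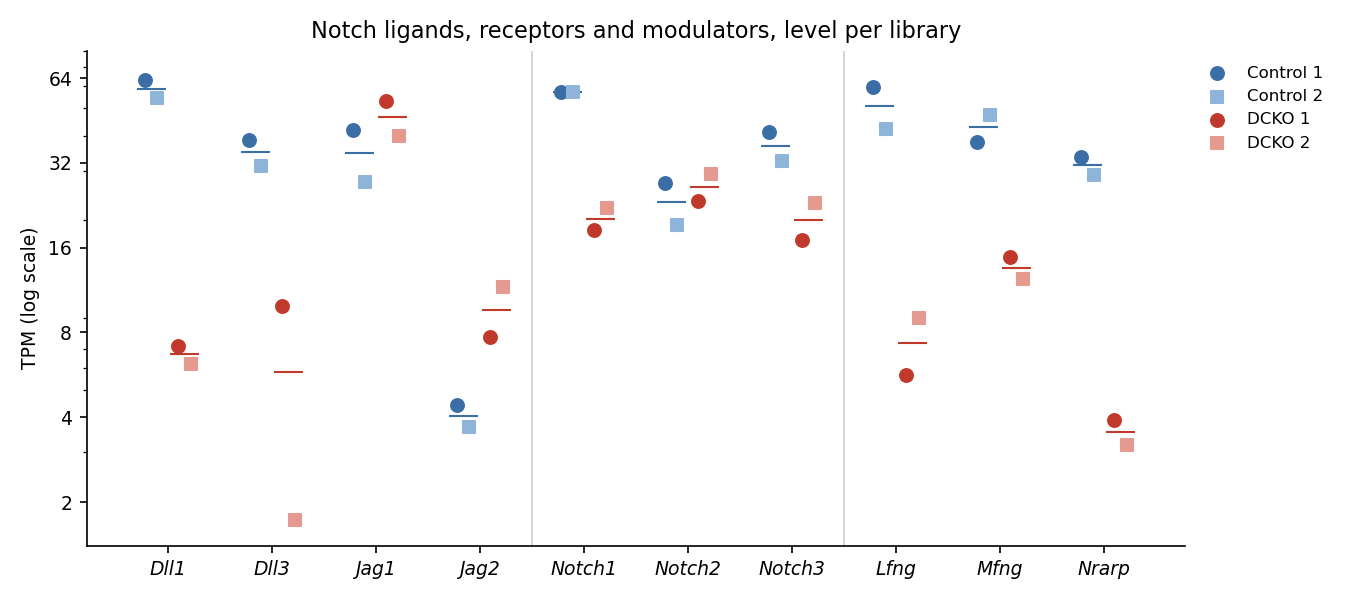
Level of each of the 10 Notch genes in TPM (log axis) in each library, with circles for replicate 1, squares for replicate 2 and a short line at the mean of each group (n = 2). Dll1 sits at 63.0 and 54.3 TPM in Control and at 7.19 and 6.20 in DCKO, whereas the libraries of Jag1 and Notch2 overlap between the groups.

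Markers of several cell types moved with the groups as well. Among the 10 neural progenitor genes listed, 9 were lower in DCKO, and their summed level went from between 1530 and 1642 TPM in Control to between 355 and 406 TPM. Of 10 neuronal genes, 6 were lower, and their sum was 757 to 821 TPM in Control and 170 to 339 TPM in DCKO. In the other direction, 7 of 10 endothelial, 7 of 10 mural, 7 of 10 cranial mesenchyme and 7 of 10 surface ectoderm markers were higher, with 9 tested among the mural and 9 among the surface ectoderm markers. Endothelial markers summed to between 89.0 and 115 TPM in Control and 205 and 276 TPM in DCKO, and mural markers to between 22.6 and 30.2 TPM and 249 and 529 TPM. Most of the mural sum in DCKO came from Acta2 (123 and 292 TPM) and Tagln (65.0 and 187 TPM). The next highest mural marker, Pdgfrb, was at 37.6 and 35.2 TPM in DCKO. Cranial mesenchyme markers summed to between 72.8 and 84.1 TPM and 202 and 224 TPM, and surface ectoderm markers to between 12.4 and 17.8 TPM and 156 and 219 TPM. Of 10 erythroid markers, 8 were lower, with sums of 7198 to 8725 TPM and 1543 to 1736 TPM, while 0 of 10 macrophage markers passed in edgeR (1 at unadjusted p under 0.05, and 1 called by DESeq2). Among these markers, Krt5 was at 0 counts in both Control libraries and in DCKO 2, and Myh11 in Control 2. The part of these cell types in the changes of the Notch genes was not tested.

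Among the ligands, Dll1 fell, Jag2 rose, and Dll3 and Jag1 did not pass. Dll1 (ENSMUSG00000014773, chromosome 17, 15367354 to 15376872 on GRCm38, minus strand) is the main activating Delta ligand of the early neural tube. It had 85.9 and 86.3 CPM in Control and 13.3 and 8.82 CPM in DCKO. Both DCKO libraries were far below the Control pair, which differed from each other by 1.00-fold, and the lowest Control library was 6.47-fold above the highest DCKO library. The mean was 7.80-fold lower in DCKO (log2 fold change -2.96, SE 0.25, adjusted p 0.00684 in edgeR). Its fitted change ranked 226 from the lowest among all tested genes. With any 1 library left out, the change lay between -3.29 and -2.70 on the log2 scale.

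Dll3 (ENSMUSG00000003436, chromosome 7, 28293553 to 28302238, minus strand) encodes a divergent Delta protein that does not activate Notch on neighbouring cells. It had 52.5 and 51.5 CPM in Control and 18.1 and 2.92 CPM in DCKO. Both DCKO libraries were below Control, but they stood 6.19-fold apart from each other. With that spread the log2 fold change of -2.30 (SE 0.77) did not pass (adjusted p 0.0958). It passed in 5 of 15 alternative fits. Among them were both fits without a DCKO library, which drop the spread between the DCKO embryos and so do not bear on it. Without DCKO 1 the log2 fold change was -4.16 and without DCKO 2 it was -1.52, so the size of the difference rests on which DCKO embryo is used.

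Of the Jagged ligands, Jag2 rose and Jag1 did not pass. Jag2 (ENSMUSG00000002799, chromosome 12, 112907819 to 112929776, minus strand) rose from 9.55 and 8.62 CPM in Control to 18.1 and 27.5 CPM in DCKO. That is a 2.51-fold higher mean (log2 fold change 1.33, SE 0.27, adjusted p 0.0297). Without Control 1 or Control 2 its adjusted p was 0.151 or 0.184. Jag1 (ENSMUSG00000027276, chromosome 2, 137081456 to 137116644, minus strand), a ligand of the neural tube and of many other tissues, had 126 and 97.5 CPM in Control and 223 and 141 CPM in DCKO. Its log2 fold change of 0.71 (SE 0.27) did not pass (adjusted p 0.125). Without DCKO 2 it was 0.99 and without DCKO 1 it was 0.33. Dll4, the Delta ligand of endothelial cells and no member of the list, rose from 10.4 and 7.75 CPM to 20.4 and 21.3 CPM (log2 fold change 1.20, SE 0.23, adjusted p 0.0276), in libraries in which 7 of 10 endothelial markers were also higher. The part of endothelial cells in the Dll4 difference was not tested.

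The start-site windows of the 4 members with the lowest fitted changes are shown. Both DCKO libraries lay below both Control libraries for each of them, as they also did for Notch1, Notch3 and Mfng. They are RefSeq windows on GRCm38.p6, from 250 bases before to 50 bases after a start site, and 9 of the 10 members had at least 1 (Mfng did not). Capitals mark 3 motifs, searched on both strands: CAGCTG, an E-box that proneural factors can bind and that reads the same on both strands, GTGGGAA, the core bound by RBPJ, and GGAATG, the core bound by TEAD factors, the partners of YAP. The last pair can share the letters GGAA, but no member window held both. Dll1 had 2 windows, and the upstream one, which holds a motif and lies just outside the GENCODE gene, is printed.
Dll1, chr17:15376883-15377182, minus strand: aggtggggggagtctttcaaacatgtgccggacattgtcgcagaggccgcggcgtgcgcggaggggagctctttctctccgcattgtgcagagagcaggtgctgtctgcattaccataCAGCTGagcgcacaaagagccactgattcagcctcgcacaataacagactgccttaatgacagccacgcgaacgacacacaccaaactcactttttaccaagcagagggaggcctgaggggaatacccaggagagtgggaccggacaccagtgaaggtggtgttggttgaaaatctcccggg
Dll3, chr7:28301736-28302035, minus strand: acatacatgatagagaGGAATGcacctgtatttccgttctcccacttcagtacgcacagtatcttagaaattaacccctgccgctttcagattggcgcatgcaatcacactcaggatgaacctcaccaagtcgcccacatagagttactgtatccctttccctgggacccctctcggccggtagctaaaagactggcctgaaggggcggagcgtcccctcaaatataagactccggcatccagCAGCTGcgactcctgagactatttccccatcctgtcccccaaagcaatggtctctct
Lfng, chr5:140607091-140607390, plus strand: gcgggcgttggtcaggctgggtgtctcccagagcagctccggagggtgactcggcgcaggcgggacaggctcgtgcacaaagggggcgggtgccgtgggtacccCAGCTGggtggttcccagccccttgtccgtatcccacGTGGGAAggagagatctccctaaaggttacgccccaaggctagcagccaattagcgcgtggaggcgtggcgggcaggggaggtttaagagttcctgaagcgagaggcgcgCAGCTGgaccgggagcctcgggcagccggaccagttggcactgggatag
Nrarp, chr2:25180508-25180807, plus strand: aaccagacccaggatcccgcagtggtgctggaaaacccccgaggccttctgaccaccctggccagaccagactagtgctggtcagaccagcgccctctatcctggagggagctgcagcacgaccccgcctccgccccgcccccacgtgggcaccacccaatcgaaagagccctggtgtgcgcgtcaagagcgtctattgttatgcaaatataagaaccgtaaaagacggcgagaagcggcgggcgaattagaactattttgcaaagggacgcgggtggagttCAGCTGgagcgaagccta

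CAGCTG was found in 5 of the 10 member windows, those of Dll1, Dll3, Lfng, Nrarp and Jag1, and in 16.3% of all 32851 windows. Lfng held 2 copies. GTGGGAA was found in 1 of the 10 member windows, that of Lfng, where it begins 109 bases before the start site, and in 6.38% of all windows. The printed window of Nrarp, a target of Notch itself, held no such match. GGAATG was found in 2 of the 10, those of Dll3 and Notch1, and in 14.7% of all windows. A match shows the letters and not that a factor binds there. Jag1, which did not pass, was among the genes with the E-box letters. The windows of Notch1 and Notch3, both called lower, and the Dll1 window that is not printed did not hold them.

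Of the receptors, Notch1 and Notch3 fell and Notch2 did not pass. Notch1 (ENSMUSG00000026923, chromosome 2, 26457903 to 26516663, minus strand), the main receptor of neural progenitors, fell from 256 and 277 CPM in Control to 121 and 118 CPM in DCKO. The groups were well apart, each pair of libraries differing by at most 1.08-fold, and the mean was 2.23-fold lower (log2 fold change -1.16, SE 0.15, adjusted p 0.0129). Without Control 1 or Control 2 the change was -1.22 or -1.13, but the adjusted p was 0.0773 or 0.0921.

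Notch3 (ENSMUSG00000038146, chromosome 17, 32120820 to 32166852, minus strand), a receptor of neural progenitors and of mural cells, had 176 and 171 CPM in Control and 104 and 119 CPM in DCKO. The difference just passed (log2 fold change -0.64, SE 0.16, adjusted p 0.0481). That call stands at the edge of the threshold: it was lost without Control 1, Control 2 or DCKO 1. The call held without DCKO 2, when the Control pair alone sets the spread. In all, 9 of 15 alternative fits lost it. Notch3 was lower while 7 of 10 mural markers were higher in the same libraries. The part of mural cells in the Notch3 difference was not tested. Notch2 (ENSMUSG00000027878, chromosome 3, 98013527 to 98150361, plus strand), the receptor of many mesenchymal and epithelial tissues, had 151 and 130 CPM in Control and 182 and 193 CPM in DCKO. Its log2 fold change of 0.42 (SE 0.16) did not pass (adjusted p 0.130). Notch4, the endothelial receptor, had 6.53 and 12.8 CPM in Control and 7.05 and 8.88 CPM in DCKO, with overlapping groups (log2 fold change -0.28, SE 0.38, adjusted p 0.631).

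The modulators fell. Lfng (ENSMUSG00000029570, chromosome 5, 140607320 to 140615545, plus strand), the fringe enzyme that favours signalling from Delta over Jagged ligands, had 72.9 and 62.3 CPM in Control and 9.12 and 12.6 CPM in DCKO. The mean was 6.22-fold lower (log2 fold change -2.64, SE 0.23, adjusted p 0.00743). Mfng (ENSMUSG00000018169, chromosome 15, 78755882 to 78773475, minus strand), a related fringe enzyme, had 34.2 and 50.4 CPM in Control and 19.5 and 14.1 CPM in DCKO. Its mean was 2.52-fold lower (log2 fold change -1.33, SE 0.27, adjusted p 0.0310). That adjusted p was 0.0758 without Control 1 and 0.169 without Control 2. Rfng, the third fringe enzyme, had 14.7 and 15.6 CPM in Control and 15.2 and 9.58 CPM in DCKO, with overlapping groups (log2 fold change -0.29, SE 0.28, adjusted p 0.500).

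Nrarp (ENSMUSG00000078202, chromosome 2, 25180758 to 25183339, plus strand) encodes a small ankyrin repeat protein that Notch switches on and that limits Notch in turn. It fell from 46.4 and 48.9 CPM in Control to 7.67 and 5.30 CPM in DCKO. The mean was 7.35-fold lower (log2 fold change -2.88, SE 0.24, adjusted p 0.00684). The lowest Control library was 6.05-fold above the highest DCKO library. With any 1 library left out, the log2 fold change lay between -3.17 and -2.64 for Nrarp and between -2.89 and -2.43 for Lfng. Dll1, Notch1, Notch3 and Nrarp each overlap a gene model on the opposite strand, and whether strand was used in counting is not stated, so reads of the pairs may be mixed.

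**Figure D2:**
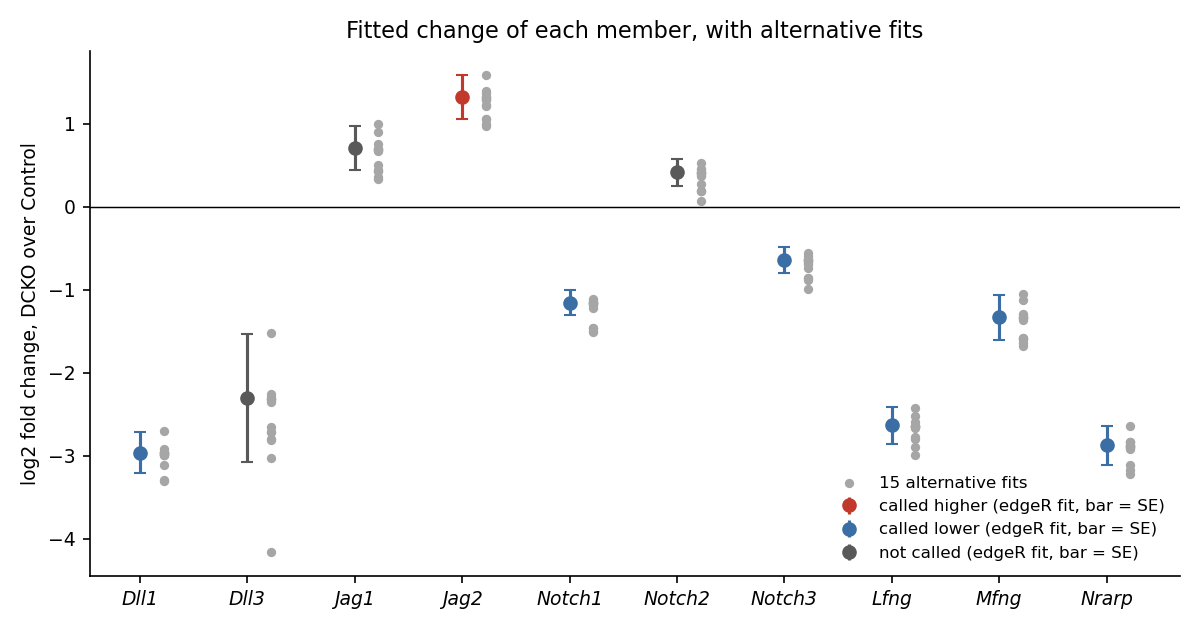
Log2 fold change of each member, DCKO over Control, from the edgeR fit with its SE (coloured by the call) and, in grey, under the 15 alternative fits. The grey points of Dll3 reach from -4.16 to -1.52, and no member's points cross 0.

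In the authors' deposited table the same members had fold changes of like size. It lists Dll1 at a log2 fold change of -2.91, Nrarp at -2.82, Lfng at -2.58, Dll3 at -2.25, Mfng at -1.28 and Notch1 at -1.10. Of the 10 members, 6 are lower and 2 higher there at a false discovery rate under 0.05, beside 13.2% and 15.6% of its 12574 genes. The calls differ for 3 members: the authors' deposited table calls Dll3 (false discovery rate 0.000795) and Jag1 (0.0343) and does not call Notch3 (0.0652).

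Levels can be set against each other per length, in TPM. In Control, Dll1 (mean 58.6 TPM) and Notch1 (57.2) stood at the top, followed by Lfng (50.8), Mfng (42.8), Notch3 (36.8), Dll3 (34.9), Jag1 (34.6), Nrarp (31.3), Notch2 (23.2) and Jag2 (4.05). From Dll1 down to Nrarp, neighbours in this order overlapped in their libraries, while Notch2 and Jag2 each stood clear of the gene above. In DCKO the order was Jag1 (46.6 TPM), Notch2 (26.3), Notch1 (20.3), Notch3 (20.0), Mfng (13.6), Jag2 (9.65), Lfng (7.32), Dll1 (6.70), Dll3 (5.81) and Nrarp (3.55). Here Jag1 and Notch2 stood clear of the genes below them, Notch1 and Notch3 overlapped, and so did each neighbour from Jag2 down. On TPM the groups overlapped for Jag1 and Notch2, unlike on CPM.

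Delta-type ligands held a lower share of ligand transcripts in both DCKO libraries than in both Control libraries. The summed level of Dll1, Dll3, Dll4, Jag1 and Jag2 was 153 and 120 TPM in Control and 85.2 and 68.8 TPM in DCKO, a scale that the ribosomal RNA share lowers in DCKO. In TMM-scaled CPM, which is not per length, the same 5 genes summed to 284 and 252 in Control and 293 and 202 in DCKO, so the groups overlapped. Shares within a library do not depend on that scaling. Delta-type ligands made up 69.7% and 74.1% of it in Control and 28.5% and 25.0% in DCKO. Jag1 made up 27.4% and 22.8% in Control and 62.5% and 58.2% in DCKO, and Dll1 made up 41.1% and 45.4% in Control and 8.44% and 9.01% in DCKO. In Control, Dll1 was thus the most abundant ligand transcript in both libraries, and in DCKO Jag1 was. Dll4 went from 3.40% and 2.67% to 8.42% and 13.5%.

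The receptor pool of Notch1 to Notch4 summed to 132 and 116 TPM in Control and to 61.4 and 78.0 TPM in DCKO. Notch1 held 43.4% and 49.5% of it in Control and 30.1% and 28.3% in DCKO. Notch2 held 20.6% and 16.6% in Control and 38.3% and 37.4% in DCKO, while Notch3 held between 27.7% and 31.1% in all 4 libraries. The fringe pool of Lfng, Mfng and Rfng went from 111 and 101 TPM to 29.4 and 28.0 TPM. Rfng held 11.7% and 11.0% of it in Control and 30.6% and 23.8% in DCKO. No test was run on these shares, which are given as a description. In TMM-scaled CPM the receptors summed to 591 and 590 in Control and 414 and 439 in DCKO, and the fringe genes to 122 and 128 in Control and 43.9 and 36.3 in DCKO.

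**Figure D3:**
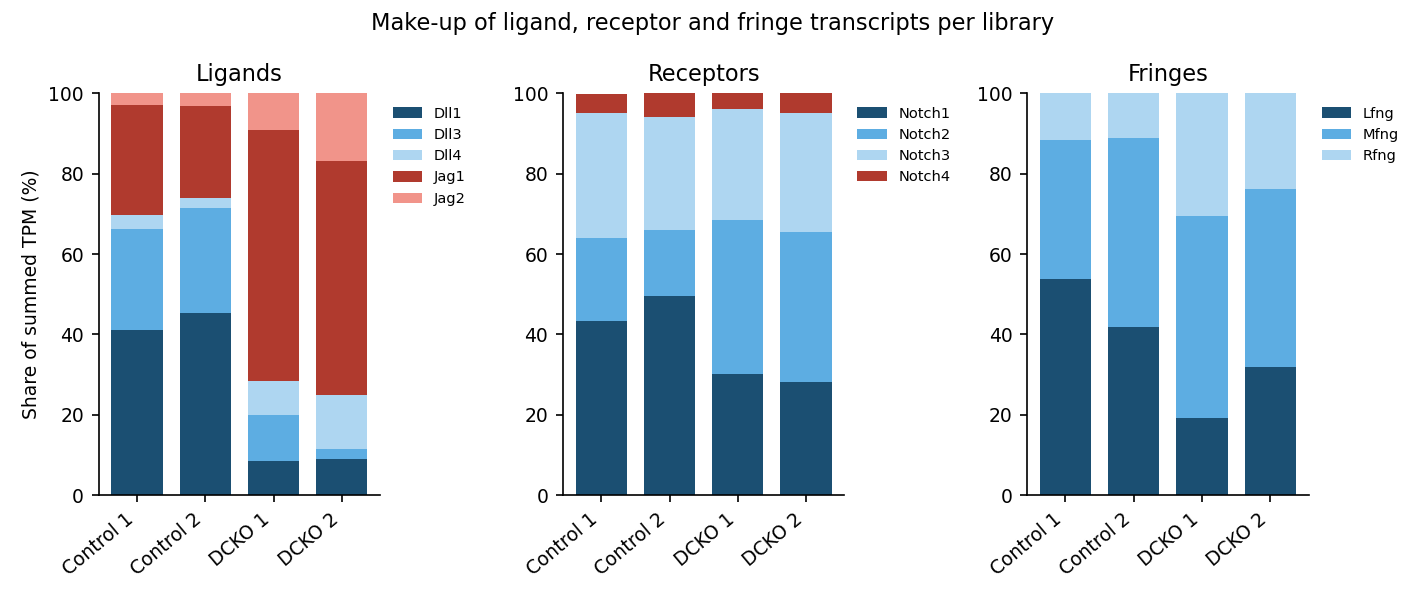
Share of the summed TPM of ligands (left), receptors (middle) and fringe enzymes (right) that each gene held in each library, in percent. Jag1 takes 62.5% and 58.2% of ligand transcripts in DCKO against 27.4% and 22.8% in Control, and Notch2 takes 38.3% and 37.4% of receptor transcripts against 20.6% and 16.6%.

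Since neural markers were lower in DCKO, each member was also set against neural progenitor genes of the same library, as log2 TPM minus the mean log2 TPM of Sox1, Sox2, Sox3, Pax6, Nes and Msi1 (pseudocount 0.1). The mean of those 6 genes was itself lower in DCKO by a difference of -1.96. Relative to it, Dll1 differed by a further -1.15, Nrarp by -1.15 and Lfng by -0.83, with both DCKO libraries below both Control libraries. Dll3 differed by -1.06, with overlapping groups. Jag2 (3.17), Jag1 (2.41), Notch2 (2.16) and Notch3 (1.08) were higher relative to the progenitor genes in both DCKO libraries. Notch1 differed by 0.46 and Mfng by 0.32, also with both DCKO libraries above both Control libraries. For Mfng this was only just so, at -1.167 in DCKO 2 against -1.173 in Control 2. With Sox2 alone as the reference, a gene that was less reduced, Notch1 was at -0.37 and Mfng at -0.51, so the sign for these genes depends on the reference. With Sox2 alone the other 8 members kept their sign, with Dll1 and Nrarp each at -1.98, Dll3 at -1.89 and Lfng at -1.66. Jag2 was at 2.34, Jag1 at 1.58, Notch2 at 1.33 and Notch3 at 0.25. Sox3, also among the 6 reference genes, fell about as far as Dll1 and Nrarp. Mean TPM in DCKO over Control was 0.111 for Sox3, 0.114 for Dll1 and 0.113 for Nrarp. It was 0.144 for Lfng and 0.166 for Dll3. The further fall of Dll1, Nrarp, Lfng and Dll3 relative to progenitor genes therefore depends on the reference as well.

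**Figure D4:**
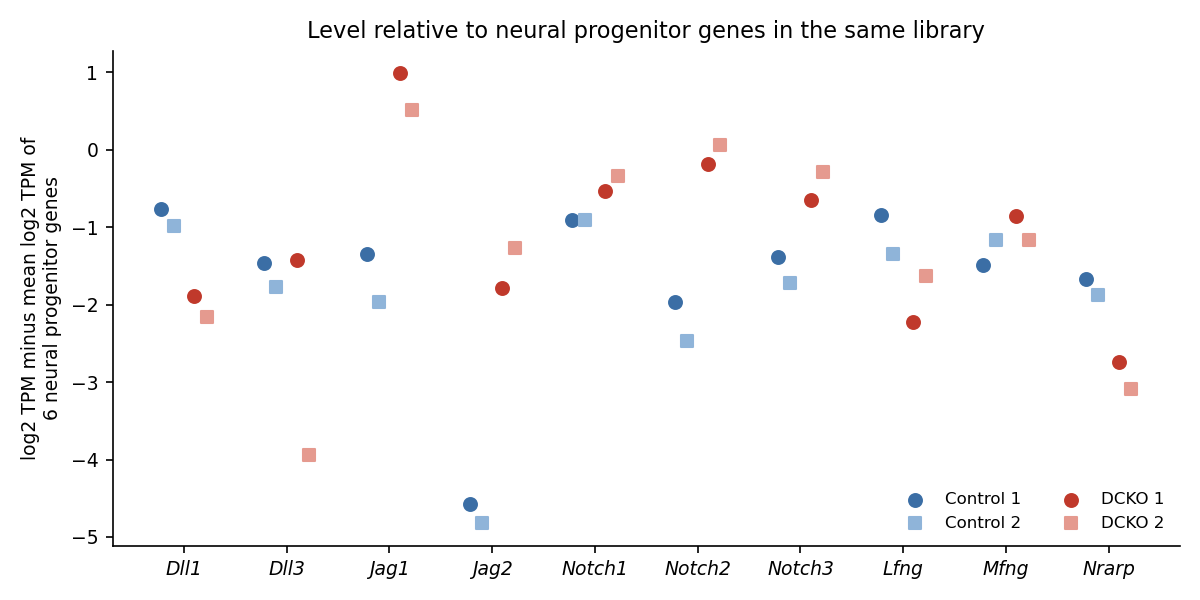
Log2 TPM of each member minus the mean log2 TPM of 6 neural progenitor genes in the same library. Dll1, Lfng and Nrarp lie lower in both DCKO libraries than in both Control libraries, by -1.15, -0.83 and -1.15 on average. Jag1, Jag2, Notch2, Notch3, Notch1 and, only just, Mfng lie higher.

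The other genes of the pathway were described by role from lists of 62 genes, all of which passed the filter. In all, 14 of the 62 were lower and 4 higher, with a median log2 fold change of -0.23. Of the 14 lower genes, 8 came from a list of 10 proneural and neuronal precursor genes, counted here with the pathway, and 1 was Hes5. In the 6 lists of general machinery, 5 of 46 genes were lower and 4 higher, with a median of 0.00, beside 8.11% and 8.93% among all genes. Among further ligands and receptors, 2 of 5 were higher, Dll4 and Dlk2, a Delta-like protein of low level which was counted 9 and 4 times in Control against 29 and 65 times in DCKO (log2 fold change 3.43, SE 0.72, adjusted p 0.0334). Of 5 genes for sugars on the receptor, 1 was lower: Pofut1, which adds the fucose that fringe enzymes extend (-0.91, SE 0.22, adjusted p 0.0460). Of 6 genes for ligand endocytosis, 1 was lower, the clathrin adaptor Epn1 (-1.07, SE 0.17, adjusted p 0.0181). Mib1, the ubiquitin ligase that activates ligands, did not pass (log2 fold change -0.56, SE 0.22, adjusted p 0.139).

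Of 10 genes for receptor cleavage, 1 was higher, the gamma-secretase subunit Ncstn (0.70, SE 0.16, adjusted p 0.0374). In the nuclear complex, 1 of 10 was lower, the corepressor Spen (-1.18, SE 0.15, adjusted p 0.0126). Rbpj, the DNA-binding partner of Notch, had 113 and 94.9 CPM in Control and 80.9 and 121 CPM in DCKO. The groups overlapped (log2 fold change -0.04, SE 0.24, adjusted p 0.915). Among antagonists and turnover genes, 2 of 10 were lower and 1 was higher. Dtx4, a Deltex ubiquitin ligase, fell from 446 and 403 CPM to 140 and 106 CPM (-1.79, SE 0.20, adjusted p 0.00988), and Fbxw7, which marks the active Notch fragment for breakdown, fell by 1.31 on the log2 scale (adjusted p 0.0333). Dtx3, a related Deltex gene, rose by 0.81 (adjusted p 0.0466). With Control 1 or with Control 2 left out, none of these 8 machinery genes nor Dll4 passed in edgeR.

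Of the 6 Hes and Hey target genes, 1 was lower, with a list median of 0.02. Both DCKO libraries lay below both Control libraries for 3 of the 6 and above them for 1, beside 32.9% and 33.6% of tested genes. Hes3, which did not pass, had 21.6 and 4.72 CPM in Control and 2.97 and 0.65 CPM in DCKO. Its log2 fold change was -2.86 (SE 0.97, adjusted p 0.0973 in edgeR), and the authors' deposited table calls it lower (false discovery rate 0.00138). Hes5, a repressor that Notch keeps on in neural progenitors and which is also among the progenitor markers, fell from 206 and 250 CPM in Control to 23.1 and 5.09 CPM in DCKO (log2 fold change -4.01, SE 0.72, adjusted p 0.0240, and 0.0633 and 0.0774 without Control 1 and Control 2). Hes1 had 20.2 and 26.9 CPM in Control and 26.6 and 47.8 CPM in DCKO, with overlapping groups (0.66, SE 0.32, adjusted p 0.201). Of the 10 proneural and neuronal precursor genes, 8 were lower, with a median of -3.02. Neurog1 fell from 34.2 and 35.9 CPM to 2.40 and 1.22 CPM (-4.27, SE 0.37, adjusted p 0.00734), and Neurog2 from 27.1 and 48.1 CPM to 12.4 and 5.17 CPM (-2.10, SE 0.49, adjusted p 0.0430, and 0.0796 and 0.172 without Control 1 and Control 2). Neurod4 (-4.03) and Insm1 (-2.85) fell as well, at adjusted p-values of 0.00761 and 0.00684.

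**Figure D5:**
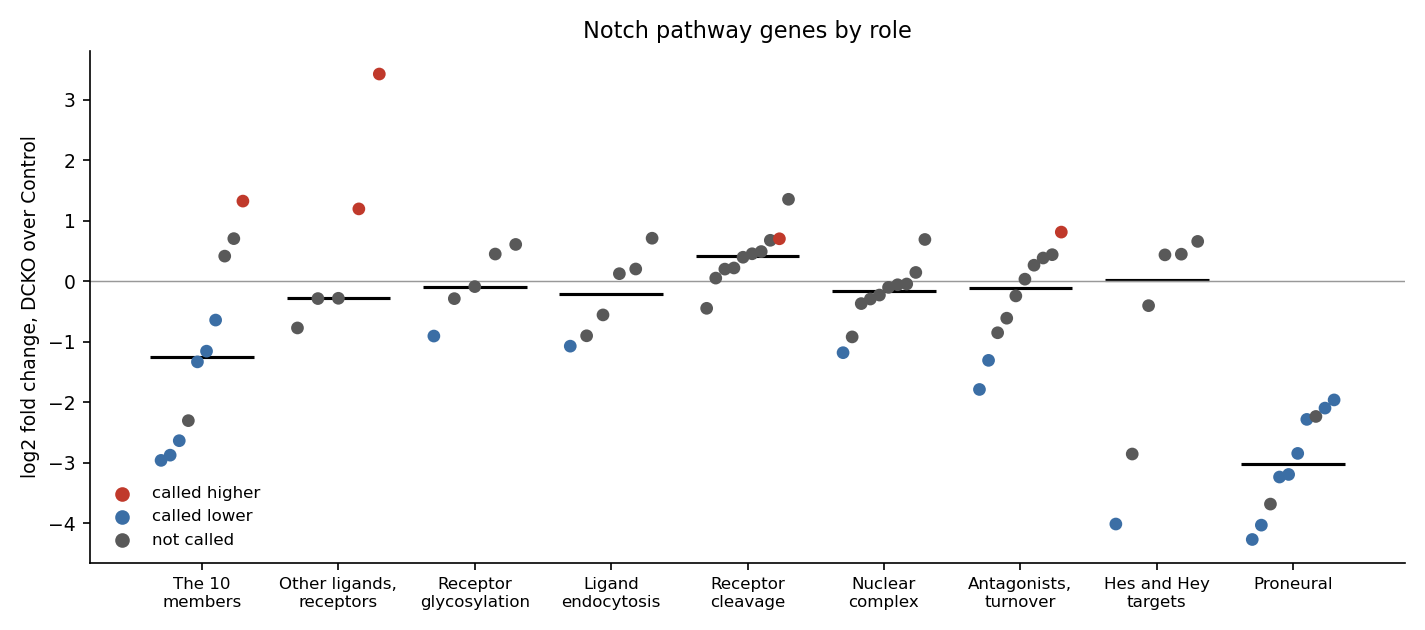
Log2 fold change of the 10 members and of 62 other genes of the Notch pathway and proneural lists, grouped by role. A line marks each group's median and colours give the call. The proneural genes lie between -4.27 and -1.96, while the machinery groups scatter around 0.

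Genes whose profiles over the 4 libraries lay nearest to a called member were sought among genes with a symbol that is not of a predicted model and an average log2 CPM of 1 or more, by the Euclidean distance between log2 CPM centred on each gene's own mean. With 4 libraries and 2 groups this mainly matches the size of the group difference. Nearest to Dll1 were Ccdc177 (distance 0.07), Nrarp (0.11) and Sox3 (0.17), a SoxB1 factor of neural progenitors, and Nrarp had Dll1, Sox3 and Ccdc177 as its nearest. Lfng had Trib1 (0.25), Insm1 (0.29) and Spsb4 (0.30). Notch1 had Jakmip2 (0.02), Dcun1d2 (0.03) and Spen (0.07). Nearest to Jag2 were Icosl (0.08), Pim3 (0.09) and Flt4 (0.09), the last a receptor of endothelial cells for VEGF-C. Mfng lay nearest to Ttpal, Hist1h2bc and Wdr4, and Notch3 to Gpatch2, Cnnm4 and Emc8.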

How the data were processed

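The authors deposited read counts per Ensembl gene, TPM per gene and a table of their own comparison with a log2 fold change, p-value and false discovery rate. Builds mm10 and GRCm38 and, with no roles, StringTie, TopHat2 2.1.1, R 3.3.2, limma 3.30.13 and edgeR 3.16.5 are listed in the submitters' processing notes. How the whole-number counts were made is not given in the sources used here. Symbols and positions are those of GENCODE M21 on GRCm38, which matched 54409 of 54532 IDs.

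Counts were filtered with filterByExpr (minimum count 10, minimum total 15), scaled by TMM and tested with the quasi-likelihood test of edgeR 4.0.16 in R 4.3.3, with group as the only term, two-sided. P-values were adjusted by Benjamini-Hochberg across the 19207 tested genes and called under 0.05. With 2 embryos per group, 2 residual degrees of freedom remain. SE were derived from the F statistic. Alternatives were other scalings, no filter, DESeq2 1.42.0, limma 3.58.1 (voom, and log2 TPM with a pseudocount of 1 or 0.1), each library left out, a replicate block and omission of the ribosomal cluster genes. Named genes were all members, Lats1, Lats2, up to 4 called genes per pathway list by p-value, the nearest 3 profiles of each called member, and Hes1, Hes5, Neurog1, Neurog2, Rbpj, Mib1, Dll4 and Notch4. Rfng, Hes3, Sox2, Xist, Krt5, Myh11, Acta2, Tagln and Pdgfrb were added after values were seen. 1 further gene of this rule is not reported here. The members and lists were chosen with earlier results of these data known.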

Additional observations from a re-analysis of the deposited data

How the results depend on the processing

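No member changed sign under the 15 alternatives. Of 150 such member results, 121 kept their side of the threshold, 23 lost the call (9 of them for Notch3) and 6 gained it (5 of them for Dll3). With the DESeq2 test, 2602 genes were higher and 2594 lower, with 7 other pathway genes higher. Scaling to library totals moved the median of all genes by -0.35 and gave 3744 lower genes (24.6% of calls higher, against 52.4%), with 2 other pathway genes higher, as did no filter (2). On filtered log2(TPM + 1), which moved the median by -0.21, 1007 genes were higher (37.2% of calls), and with a pseudocount of 0.1 (-0.24), 958 (37.4%), each with 0 other pathway genes higher. On unfiltered log2(TPM + 1), limma called 0 genes higher and 0 lower, hence 0 members and 0 other pathway genes, with 6446 of 30682 genes (21.01%) and 8 of 10 members at an unadjusted p under 0.05. A replicate block gave 1002 higher and 776 lower genes, with 0 members and 0 other pathway genes higher and 4 members lower. The replicate numbers share no stated origin, and deviations of same-numbered libraries correlated at -0.04. Leaving out 1 library gave 155 to 2619 higher and 72 to 2565 lower genes, 0 to 2 members higher and 3 to 7 lower, and 0 to 5 other pathway genes higher and 4 to 18 lower. The fewest calls came without a Control library, when the DCKO pair sets the spread. In the fits without a DCKO library the Control pair alone sets it. With 1 library left out, Rbpj lay between -0.37 and 0.21 (above 0 without Control 1 or DCKO 1) and Notch4 between -0.69 and 0.25 (above 0 without Control 2), and neither was called. Relative to Sox2 alone, Notch1 was at -0.37 and Mfng at -0.51.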
